A study of Mus musculus with 27 samples.

Results

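Volumetric muscle loss (VML) removes so much of a skeletal muscle that it cannot regrow its lost part, and the cells that enter or divide in the wound have to copy their DNA and pass through mitosis. The genes examined here are 51 cell cycle genes, chosen by name, and each of the 51 symbols was found once among the 54532 genes of the expression table. Of these, 20 act in or around S phase, when DNA is copied (the replication genes), and 31 act from late S phase through cell division (the mitotic genes). RNA from 27 tibialis anterior muscles of C57BL/6 mice was sequenced in bulk. The series' design text describes 8-week-old males in which 40% of the muscle was excised through part of its thickness. The groups were uninjured control muscle (n = 5) and injured muscle taken 3 days (n = 5), 7 days (n = 6), 14 days (n = 6) and 21 days (n = 5) after VML, with no other treatment and no transgene named. The control label does not say whether those mice had surgery, and no sham-operated group was among the samples. Nothing in the labels ties a sample to an animal, so the spread between samples may be in part technical. The series' design text speaks of injury to one leg and the study's methods of injury to both, so muscles of the same mouse may be among the samples, and the p-values then treat them as independent. Myofibre genes were abundant in all samples, with a summed level of 8 markers (Acta1, Ckm, Myh1, Myh2, Myh4, Myl1, Pygm and Tnnt3) between 18801 and 77825 FPKM, and none of the 8 was at 0.

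The cell cycle is driven by cyclins, proteins that rise and fall, and by the kinases they switch on. Before S phase, E2F transcription factors are released from the retinoblastoma family of proteins and turn on the genes for copying DNA: the MCM helicase that opens the double helix, the loaders that place it at origins, the sliding clamp that holds the polymerase, and the enzymes that make deoxynucleotides. Later, the DREAM and MMB-FOXM1 complexes act through a promoter element called the CHR, often together with CCAAT boxes bound by NF-Y, on the genes for mitosis: cyclin B and its kinase, the spindle and its motors, the kinetochores that attach chromosomes to it, and the machinery of cytokinesis. In resting adult muscle the myofibre nuclei do not divide, and after injury satellite cells, fibro-adipogenic progenitors and infiltrating macrophages are the cells known to proliferate.

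The promoters are shown for 3 replication and 3 mitotic genes, because the classes differed in the motifs that their promoters hold. Each runs 5′ to 3′ from 250 bases before to 50 bases after the start that RefSeq gives on build GRCm38.p6, on the strand of the gene. Capitals mark matches, on either strand, to an E2F octamer (TTTCCCGC, TTTCGCGC, TTTGCCGC or TTTGGCGC), to the CHR (TTTGAA or TTCGAA) or to the CCAAT box (CCAAT, which reads ATTGG on the other strand). The replication genes are Mcm5 at chr8:75109259-75109558 (plus strand), Pcna at chr2:132253131-132253430 (minus strand) and Rrm2 at chr12:24708004-24708303 (plus strand), and the mitotic genes are Mki67 at chr7:135716330-135716629 (minus strand), Top2a at chr11:99024140-99024439 (minus strand) and Cdk1 at chr10:69352863-69353162 (minus strand).
Mcm5: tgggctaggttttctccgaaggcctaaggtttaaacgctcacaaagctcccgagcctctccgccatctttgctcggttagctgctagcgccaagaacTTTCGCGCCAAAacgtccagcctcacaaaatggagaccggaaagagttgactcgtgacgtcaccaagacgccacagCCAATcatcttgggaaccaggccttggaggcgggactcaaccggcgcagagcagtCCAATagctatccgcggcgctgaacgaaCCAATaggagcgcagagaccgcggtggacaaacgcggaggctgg
Pcna: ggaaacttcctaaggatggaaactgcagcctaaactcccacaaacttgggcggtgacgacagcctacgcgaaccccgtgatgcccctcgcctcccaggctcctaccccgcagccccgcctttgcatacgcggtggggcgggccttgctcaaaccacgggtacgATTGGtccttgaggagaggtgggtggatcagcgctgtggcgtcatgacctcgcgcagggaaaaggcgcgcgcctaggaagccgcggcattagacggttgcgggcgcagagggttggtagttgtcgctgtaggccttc
Rrm2: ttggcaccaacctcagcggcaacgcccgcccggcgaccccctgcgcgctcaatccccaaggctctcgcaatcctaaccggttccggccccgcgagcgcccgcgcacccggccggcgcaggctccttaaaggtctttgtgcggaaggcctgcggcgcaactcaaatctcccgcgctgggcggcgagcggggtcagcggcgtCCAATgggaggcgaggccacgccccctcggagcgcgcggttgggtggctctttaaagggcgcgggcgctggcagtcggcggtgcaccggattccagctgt
Mki67: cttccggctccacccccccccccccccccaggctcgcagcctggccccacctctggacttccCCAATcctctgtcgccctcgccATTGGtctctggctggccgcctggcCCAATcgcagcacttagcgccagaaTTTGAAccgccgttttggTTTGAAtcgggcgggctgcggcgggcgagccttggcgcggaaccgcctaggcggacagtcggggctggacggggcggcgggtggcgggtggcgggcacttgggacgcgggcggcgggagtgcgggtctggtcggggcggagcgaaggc
Top2a: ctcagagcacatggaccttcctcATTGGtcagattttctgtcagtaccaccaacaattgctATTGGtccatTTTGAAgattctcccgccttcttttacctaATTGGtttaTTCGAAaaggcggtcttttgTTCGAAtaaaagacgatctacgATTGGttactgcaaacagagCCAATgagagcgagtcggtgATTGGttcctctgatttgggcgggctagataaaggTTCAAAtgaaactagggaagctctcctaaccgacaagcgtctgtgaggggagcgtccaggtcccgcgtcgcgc
Cdk1: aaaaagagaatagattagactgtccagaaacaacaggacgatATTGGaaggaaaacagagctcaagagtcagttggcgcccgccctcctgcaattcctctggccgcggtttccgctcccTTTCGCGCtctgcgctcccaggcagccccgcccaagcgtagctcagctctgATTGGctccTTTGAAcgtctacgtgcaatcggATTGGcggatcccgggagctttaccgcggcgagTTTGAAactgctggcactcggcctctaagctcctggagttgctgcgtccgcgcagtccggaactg

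In Mcm5 the capital run 153 bases before the start holds 2 overlapping E2F octamers, TTTCGCGC on the printed strand and TTTGGCGC on the other, and Pcna and Rrm2 hold none of the 4 octamers and 1 CCAAT box each. Top2a holds 4 CHR matches and 6 CCAAT boxes, Mki67 holds 2 and 3, and Cdk1 holds 2 and 3 together with an E2F octamer. RefSeq promoters were matched for 43 members, 18 replication and 25 mitotic. None was matched for Mcm4, Ccne2, Ccna2, Aurkb, Kif20a, Spc24, Foxm1 and Tpx2. An E2F octamer was present in 6 of 18 replication promoters (33.3%) and 1 of 25 mitotic promoters (4%), against 2.64% of the 20449 promoters in the reference. The CHR was present in 4 of 18 replication promoters (22.2%) and in 20 of 25 mitotic promoters (80%), against 18.4% of all. CCAAT boxes were common in both, in 12 of 18 (66.7%) and 20 of 25 (80%), against 38.2% of all promoters. The CHR and a CCAAT box stood together in 18 of 25 mitotic promoters (72%), in 4 of 18 replication promoters (22.2%) and in 7.34% of all. Among promoters of 10032 tested genes that are not members, the E2F share was 3.87%, close to the 4% of the mitotic promoters. In that set the CHR was present in 13.3%, CCAAT boxes in 38.0% and both together in 5.45%. These are counts of letters, not of binding. The RefSeq start lay at most 150 bases from the gene start of the expression table for 40 of the 43 promoters and up to 539 bases from it for the others.

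Levels are given as FPKM, reads scaled by gene length and by a library size that had been rescaled between samples. That rescaling differed by group, as set out with the processing below. A change is the difference in mean log2(FPKM + 1) with its standard error (SE). This scale understates the change of genes under about 1 FPKM. A gene was called higher or lower where the adjusted p of the limma fit over all 27 samples was under 0.05. Depth was 14376395 to 24436763 reads per sample, with a median of 17398586. A member had as few as 2 reads (Bub1) or 3 reads (Hmmr) in all 5 uninjured muscles together, and none had fewer than 254 (Ccne2) over the 5 day 3 muscles. Before the results, 2 libraries need naming. Over 14501 genes, with 129 cell cycle genes left out, day 3 replicate 5 lay nearer to the mean of day 7 than to that of its own group (distance 47.0 against 61.9), and day 7 replicate 5 lay nearer to the mean of day 3 (43.1 against 80.5). In all, 9 of the 27 samples were nearer to another group. They include day 7 replicate 6, nearest to day 21 (62.3 against 78.0), and day 7 replicate 3, nearest to uninjured muscle (58.3 against 66.6). Both had low cell cycle sums for day 7, and they were left out only one at a time. Results that rest on day 3 replicate 5 and day 7 replicate 5, called the 2 libraries below, are given with and without them.

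At day 3 nearly the whole cell cycle programme was higher than in uninjured muscle. Of the 49 members that passed the filter on low values, 46 were called higher and 0 lower, where 23.4% of the 14630 tested genes were called higher. They were 17 of 19 replication genes and 29 of 30 mitotic genes. Some members, among them Hmmr, Kif23, Ect2, Bub1 and Cenpe, passed the filter only through day 3 muscles and day 7 replicate 5. In these the filter and the call at day 3 rest on the same high values, so the filtered count is in part set by the filter. With no filter, 48 of 51 were called, where 11.6% of 31179 genes were, and this includes Mcm10, which helps the helicase to start, and Cenpf, a kinetochore protein, which were too low to pass. All 5 day 3 muscles lay above all 5 uninjured muscles for 48 of the 51 members, against 19.8% of the tested genes. The 3 exceptions were Ccne2, Rrm1 and Aurka. Without the 2 libraries the count called was again 46. Scaling every sample to a common sum moved the median change of all genes at day 3 to 0.51, turned the 3417 genes higher and 2899 lower into 6868 and 322, and called 47 members. All comparisons with uninjured muscle share the same 5 uninjured muscles. In bulk tissue, more dividing cells and more RNA per dividing cell cannot be told apart.

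**Figure D1:**
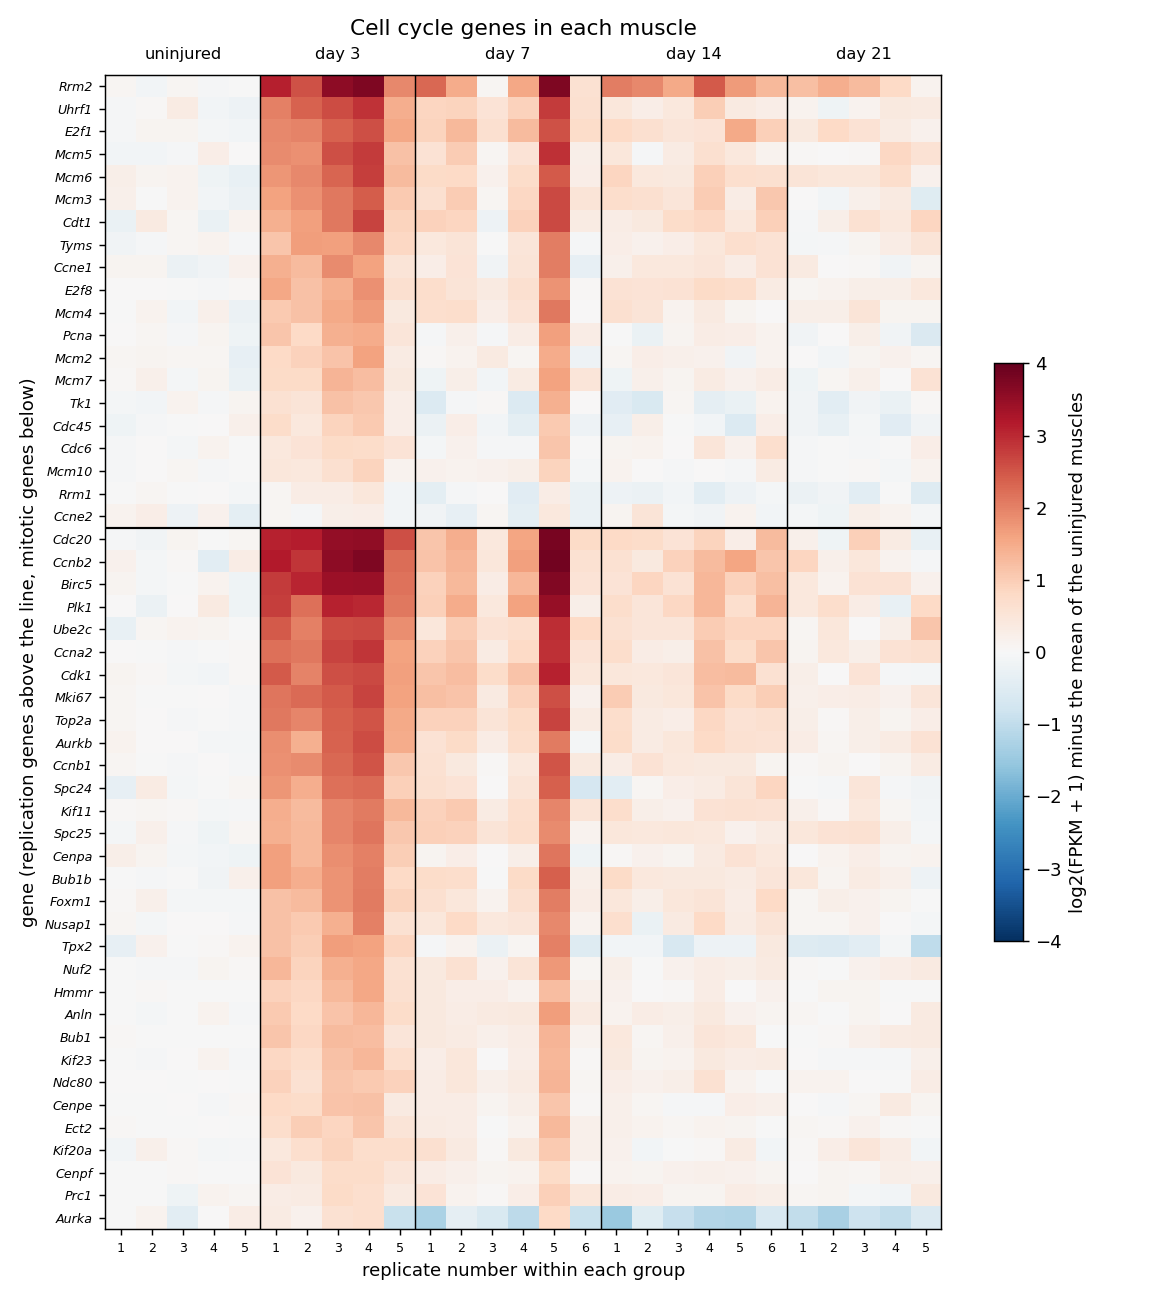
Difference of each muscle's log2(FPKM + 1) from the mean of the 5 uninjured muscles, for 20 replication genes (above the line) and 31 mitotic genes (below it), with the 27 muscles in columns by group and replicate number; red is above and blue below the uninjured mean. Day 3 is red for all but a few genes, day 7 replicate 5 has the highest day 7 value for 51 of 51 genes, and Aurka (bottom row) is blue from day 7 in all but that muscle.

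The helicase and its loaders rose together at day 3. All 7 tested helicase members (Mcm2 to Mcm7 and Cdc45) were called, with changes from 0.67 (Cdc45) to 2.05 (Mcm5). Mcm5, a subunit of the ring that unwinds the helix, read 0.263, 0.262, 0.341, 0.651 and 0.393 FPKM in the uninjured muscles and 4.12, 3.90, 7.14, 8.51 and 2.13 FPKM at day 3. The groups did not overlap, and the change was 2.05 ± 0.36 (SE) on the log2 scale, adjusted p = 7.77e-05. Of the loaders, Cdt1 was called (1.76 ± 0.35, adjusted p = 0.000269), as was Cdc6. Cdc6 read 0.115, 0.167, 0.0815, 0.28 and 0.131 FPKM in uninjured muscle and 0.532, 0.666, 0.964, 0.907 and 0.692 FPKM at day 3, under 1 FPKM throughout (0.60 ± 0.17, adjusted p = 0.00604).

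Pcna, the sliding clamp, was the member most abundant without injury. It read 10.4, 11, 10.05, 11.3 and 8.97 FPKM in uninjured muscle and 23.5, 18.7, 29.3, 30.7 and 14.8 FPKM at day 3, a change of 1.06 ± 0.24 with adjusted p = 0.000844. PCNA also serves DNA repair, which does not need S phase. Pseudogenes of Pcna stand in the table, and the one with reads reached 0.633 FPKM at most, far under the gene.

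The enzymes that make deoxynucleotides did not move as a block. Ribonucleotide reductase, which turns ribonucleotides into deoxynucleotides, is built from a large subunit, Rrm1, and a small subunit, Rrm2. Rrm2 read 0.488, 0.294, 0.492, 0.352 and 0.394 FPKM in uninjured muscle and 11.2, 7.19, 15.9, 17.6 and 4.31 FPKM at day 3. That is 27.8 times the uninjured mean and a change of 2.98 ± 0.45 (adjusted p = 1.41e-05), the greatest of the replication genes on this scale, although E2f8, E2f1 and Uhrf1 had larger ratios of means (66, 47.9 and 29.5). Rrm1 read 2.86, 3.14, 2.89, 2.94 and 2.69 FPKM in uninjured muscle and 3.09, 3.75, 3.83, 4.3 and 2.64 FPKM at day 3. Its groups overlapped, and its change of 0.20 ± 0.13 did not pass (adjusted p = 0.228), although it did with 0.83 when each sample was scaled to a common sum. In FPKM the small subunit was therefore below the large one in all uninjured muscles and above it in all day 3 muscles. That order rests on the listed gene lengths, 11012 bases for Rrm1 and 2771 for Rrm2. In reads, Rrm2 had 646, 326, 1163, 1113 and 254 at day 3 and Rrm1 had 711, 676, 1114, 1079 and 618. Thymidylate synthase (Tyms) rose (1.44 ± 0.26, adjusted p = 0.000126), and so did thymidine kinase, Tk1 (0.73 ± 0.25, adjusted p = 0.0208).

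The E-type cyclins, which start S phase with their kinase Cdk2, also parted. Ccne1 read 0.338, 0.349, 0.064, 0.122 and 0.411 FPKM in uninjured muscle and 2.32, 2.02, 3.6, 2.85 and 0.777 FPKM at day 3, a change of 1.34 ± 0.28 with adjusted p = 0.000507. Ccne2 read 0.709, 0.864, 0.366, 0.767 and 0.195 FPKM in uninjured muscle and 0.644, 0.525, 0.824, 0.866 and 0.430 FPKM at day 3. Its groups overlapped throughout (change 0.08 ± 0.16, adjusted p = 0.707), and its sign turned under quantile normalization (-0.13). Of its exon bases, 17.4% are shared with Ints8 on the other strand, and in a library that does not keep strand the reads of the pair cannot be told apart there.

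The transcription factors were among the lowest members without injury and rose steeply. E2f1, the activator of S phase genes, read 0.0476, 0.147, 0.162, 0.0258 and 0 FPKM in uninjured muscle and 3.08, 3.24, 4.51, 5.4 and 2.12 FPKM at day 3, a change of 2.07 ± 0.26 with adjusted p = 2.05e-06. E2f8, a repressor that closes the E2F wave, read 0.0276, 0.032, 0.0157, 0 and 0.0502 FPKM in uninjured muscle and 1.96, 1.3, 1.77, 2.64 and 0.613 FPKM at day 3 (1.32 ± 0.22, adjusted p = 4.01e-05). Uhrf1, which carries DNA methylation across the replication fork, read 0.123, 0.191, 0.44, 0.0763 and 0 FPKM in uninjured muscle and 3.66, 4.91, 6.13, 7.61 and 2.17 FPKM at day 3 (2.27 ± 0.30, adjusted p = 3.36e-06). None of the 3 overlapped between the groups.

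**Figure D2:**
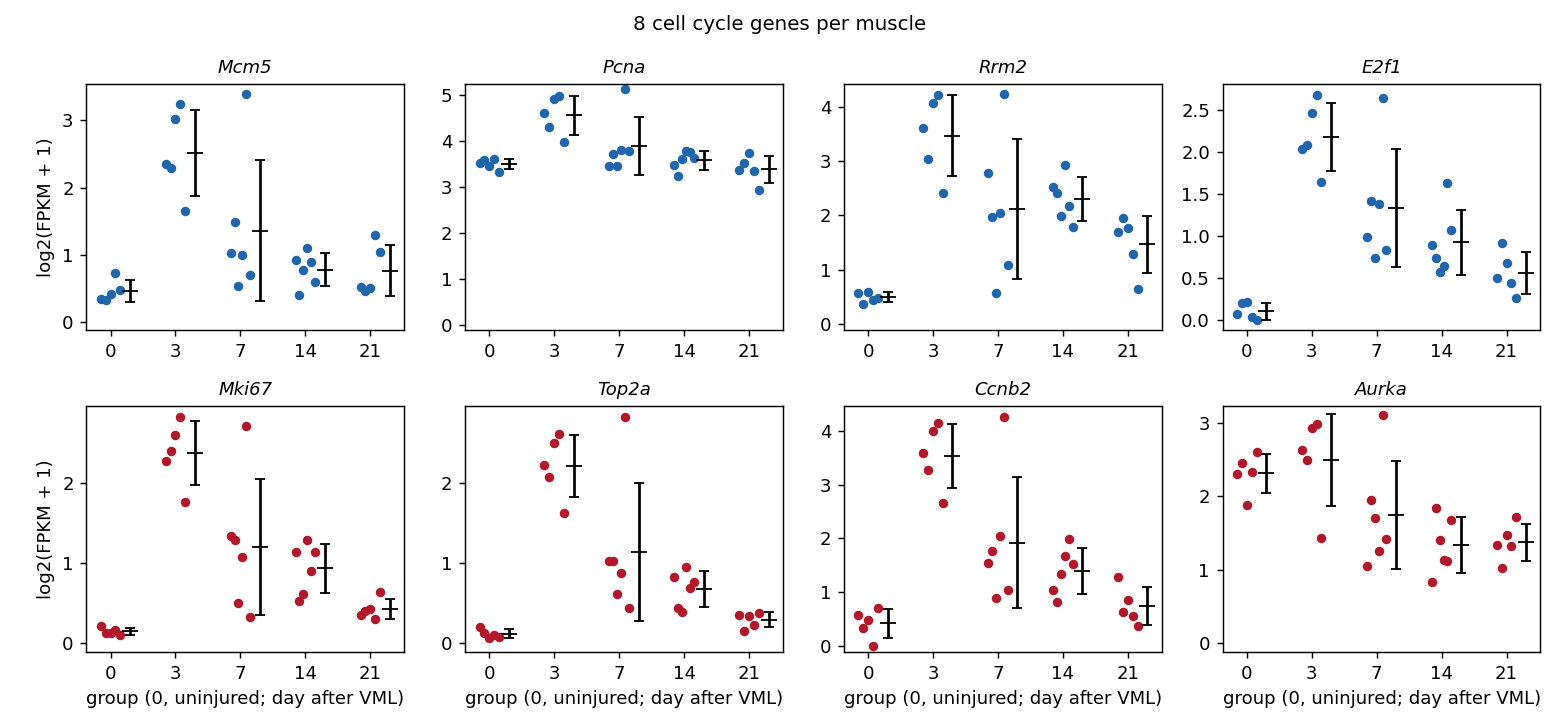
Level of 8 genes as log2(FPKM + 1) in each of the 27 muscles (points) by group, with the group mean and SD beside them; replication genes are blue and mitotic genes red, and 0 stands for uninjured. Rrm2 lies above uninjured in all 6 day 14 and all 5 day 21 muscles, Pcna overlaps uninjured from day 7 on, and Aurka lies below uninjured at days 14 and 21.

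Of the 8 mitotic cyclins, kinases and transcription factors, 7 were called at day 3, with Aurka the exception. Cyclin B2 (Ccnb2) read 0.490, 0.266, 0.390, 0 and 0.625 FPKM in uninjured muscle and 11.1, 8.71, 15.1, 16.8 and 5.31 FPKM at day 3, a change of 3.12 ± 0.41 with adjusted p = 3.23e-06. Ccnb1 read 0.107, 0.0276, 0, 0.0578 and 0 FPKM in uninjured muscle, from 11 reads in all, and 2.72, 2.83, 4.09, 4.92 and 1.2 FPKM at day 3 (1.92 ± 0.29, adjusted p = 1.88e-05). Both cyclins have pseudogenes in the table, at no more than 1.37 FPKM, with which reads may be shared.

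Cdk1, the kinase they activate, read 0.213, 0.153, 0.0691, 0.0329 and 0.152 FPKM in uninjured muscle and 5.14, 3.44, 5.71, 6.05 and 2.52 FPKM at day 3 (2.26 ± 0.31, adjusted p = 5.85e-06). Plk1, a kinase of mitotic entry and exit, read 0.239, 0.0528, 0.233, 0.591 and 0.0932 FPKM and then 7.3, 4.62, 9.46, 8.96 and 4.34 FPKM (2.64 ± 0.39, adjusted p = 1.13e-05). Ccna2, Aurkb and Foxm1 were called too, with changes of 2.30, 1.95 and 1.44. Of the genes of anaphase, Cdc20, which activates the anaphase-promoting complex, read 0.201, 0.124, 0.319, 0.217 and 0.293 FPKM without injury and 9.41, 9.79, 13, 13.3 and 6.29 FPKM at day 3. Its change of 3.17 ± 0.39 (adjusted p = 1.32e-06) was the largest of the 51 members. Ube2c, the E2 enzyme of the same complex, rose by 2.32, but 22.8% of its exon bases lie in the fast troponin C gene Tnnc2 on the other strand, so its level is uncertain.

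Both chromosome structure genes, and all 7 tested kinetochore and centromere genes, were called at day 3. Mki67, which coats mitotic chromosomes and is the Ki-67 antigen used to stain cycling cells, read 0.157, 0.0866, 0.0847, 0.121 and 0.0679 FPKM in uninjured muscle and 3.86, 4.27, 5.08, 6.13 and 2.38 FPKM at day 3 (2.23 ± 0.28, adjusted p = 2.09e-06). Top2a, which untangles sister chromatids, read 0.15, 0.0838, 0.0378, 0.0721 and 0.0531 FPKM in uninjured muscle and 3.66, 3.2, 4.64, 5.12 and 2.09 FPKM at day 3 (2.10 ± 0.28, adjusted p = 3.1e-06). Birc5 (survivin), part of the chromosomal passenger complex, read 0.199, 0.0683, 0.1, 0.239 and 0 FPKM without injury and 6.75, 8.18, 11.1, 11.2 and 4.02 FPKM at day 3, with a mean 68 times the uninjured one (2.98 ± 0.39, adjusted p = 2.87e-06). In all 3 genes the lowest day 3 muscle lay well above the highest uninjured muscle. The others called were Cenpa, Cenpe, Ndc80, Nuf2, Spc24 and Spc25, of which Cenpa and Spc24 had uninjured means of 0.764 and 0.702 FPKM.

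The spindle genes Kif11, Tpx2, Nusap1 and Hmmr and the cytokinesis genes Kif20a, Kif23, Prc1, Anln and Ect2 were all called as well, with medians of 1.26 over the 4 and 0.83 over the 5. Of these, Hmmr, Kif23 and Ect2 passed the filter only through muscles in which they were high. Prc1, which bundles microtubules of the central spindle, had the smallest change of these. It read 0.128, 0.134, 0.0207, 0.267 and 0.224 FPKM in uninjured muscle and 0.419, 0.446, 0.977, 0.838 and 0.463 FPKM at day 3 (0.49 ± 0.14, adjusted p = 0.00678). Of the exon bases of Kif20a, 29.3% are shared with Cdc23 on the other strand, and of those of Prc1 11.1% with Rccd1.

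Aurka was the one mitotic gene not called at day 3. The gene (ENSMUSG00000027496, chr2:172356190-172370535 on GRCm38) encodes Aurora A, a kinase that matures the centrosome and builds the spindle poles. It read 3.95, 4.45, 2.69, 4.01 and 5.07 FPKM in uninjured muscle, the highest uninjured mean of the 31 mitotic genes, and 5.19, 4.61, 6.65, 6.88 and 1.71 FPKM at day 3. The groups overlapped, with the lowest value of all 10 muscles in day 3 replicate 5 (0.18 ± 0.30, adjusted p = 0.662, and 0.44 ± 0.20, adjusted p = 0.0795 without the 2 libraries). At day 7 the lowest, median and highest values were 1.07, 1.98 and 7.61 FPKM, at day 14 they were 0.782, 1.42 and 2.57 FPKM, and at day 21 the muscles read 1.52, 1.04, 1.79, 1.5 and 2.3 FPKM. All muscles of days 14 and 21 therefore lay below all uninjured muscles. Aurka was the only member called lower at day 14 (fell by 0.98 ± 0.29, adjusted p = 0.0179), where 11.3% of tested genes were called lower. When each sample was scaled to a common sum, the change at day 14 was -0.64 and was not called. At day 21 it did not pass with all samples (-0.94 ± 0.30, adjusted p = 0.079) and was called lower without the 2 libraries (-0.94 ± 0.19, adjusted p = 0.00659). The same held at day 7 (-0.56 ± 0.29, adjusted p = 0.138, and -0.83 ± 0.19, adjusted p = 0.00357 without them). Its partner Tpx2, which activates Aurora A on the spindle, had an uninjured mean of 1.02 FPKM and a day 21 mean of 0.434 FPKM, with overlapping groups (-0.51 ± 0.31, adjusted p = 0.362).

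The classes differed in where they started more than in where they arrived. Over the 20 replication genes the median of the uninjured means was 0.492 FPKM (quartiles 0.183 and 1.02), and over the 31 mitotic genes it was 0.121 FPKM (quartiles 0.0569 and 0.223). At day 3 the medians were 3.60 and 2.48 FPKM. Without injury, 26 of the 31 mitotic genes had a mean under 0.5 FPKM, as did 10 of the 20 replication genes, and at day 3 no member did. As a ratio of group means, the median rise at day 3 was 7.54 times for the replication genes and 29.8 times for the mitotic genes, of which 2 (Bub1 and Hmmr) had 3 or fewer reads without injury.

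**Figure D3:**
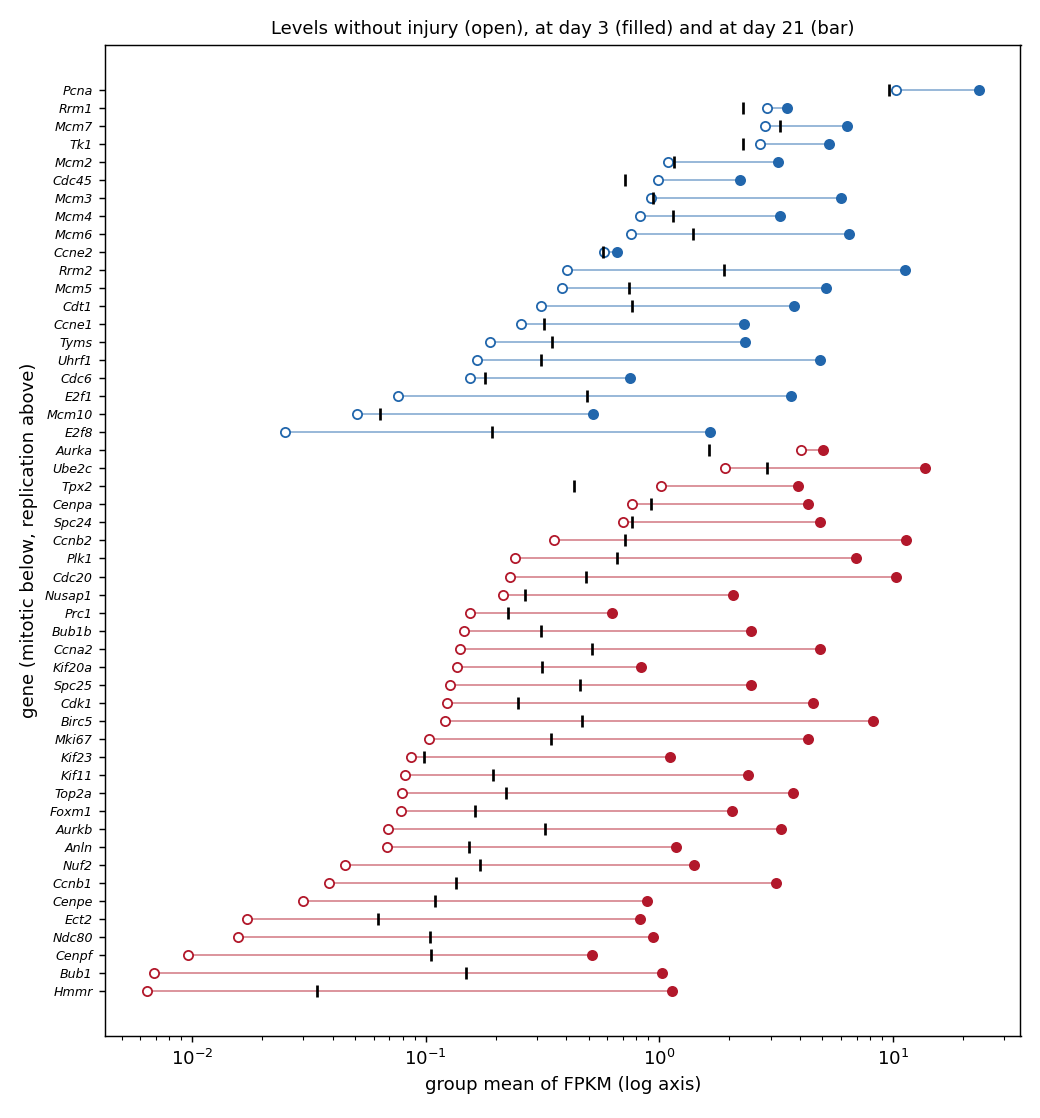
Group means of FPKM on a log axis for each of the 51 genes, without injury (open circles), at day 3 (filled circles) and at day 21 (black bars), with replication genes in blue and mitotic genes in red. The mitotic genes start lower (median 0.121 against 0.492 FPKM) and reach a similar range at day 3, while Aurka, Rrm1 and Ccne2 scarcely move at day 3 and Aurka and Tpx2 lie left of their uninjured level at day 21.

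On the log2(FPKM + 1) scale the median change at day 3 was 1.25 for the replication genes (0.08 to 2.98) and 1.55 for the mitotic genes (0.18 to 3.17), against 0.012 over all tested genes. The replication median minus the mitotic median was -0.30, and it was below 0 in all 5 day 3 muscles taken one by one, between -0.39 and -0.10 (SD 0.117). The size of that difference depended on the scale: it was -2.0 as a log2 ratio of group means, -0.43 with a pseudocount of 0.5 and -0.14 over the 42 members whose class is least open to question. Members are not replicates, so the difference between the classes was not tested.

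The summed levels show the same change of balance. Summed over the class, the replication genes read between 22.5 and 28.1 FPKM in uninjured muscle and the mitotic genes between 9.50 and 12.4 FPKM. At day 3 the sums were 51.3 to 141.6 and 63.5 to 161 FPKM. The mitotic sum over the replication sum lay between 0.362 and 0.543 in uninjured muscle, between 1.14 and 1.27 on day 3, between 0.498 and 0.847 in 5 of the 6 day 7 muscles with 1.2 in replicate 5, then between 0.512 and 0.746 on day 14 and between 0.419 and 0.603 on day 21. In each day 3 muscle the mitotic sum thus exceeded the replication sum, including replicate 5, which had the lowest sums of its group. The sums run over 31 mitotic and 20 replication genes, so they do not compare levels per gene. Per gene, the median of the day 3 means was lower for the mitotic genes (2.48 against 3.60 FPKM). Pcna, Rrm1, Mcm7 and Tk1 make up much of the uninjured replication sum. Aurka, Ube2c and Tpx2, with uninjured means of 4.04, 1.91 and 1.02 FPKM, make up much of the mitotic one (mean 11.2 FPKM). The ratio of the sums therefore rests in part on a few genes of each class.

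**Figure D4:**
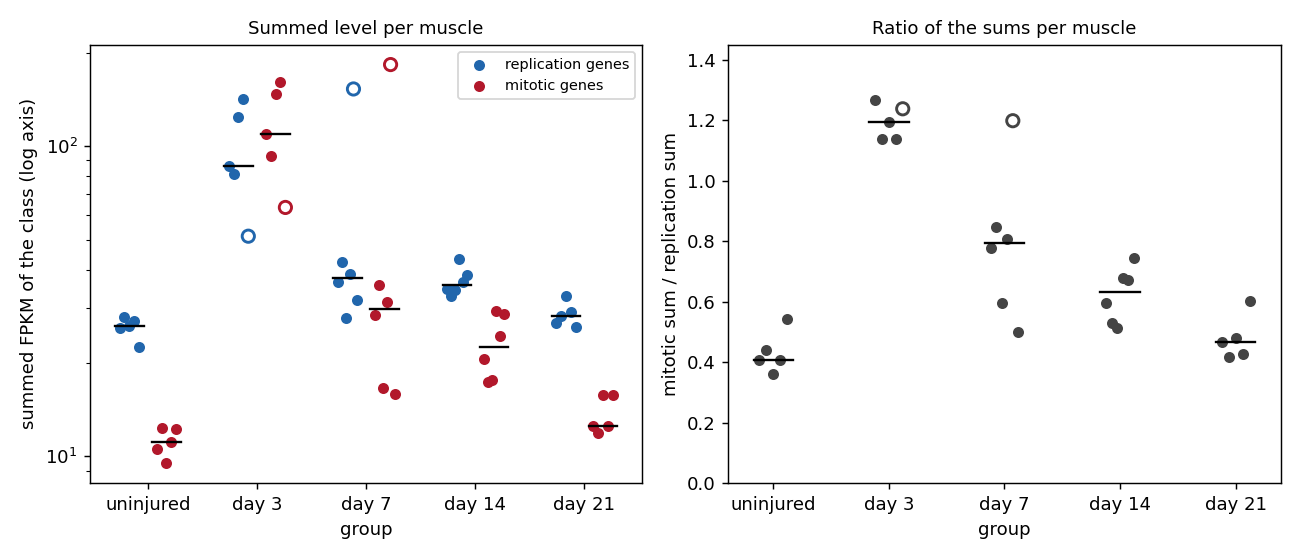
Left, summed FPKM of the 20 replication genes (blue) and 31 mitotic genes (red) in each of the 27 muscles on a log axis; right, the mitotic sum divided by the replication sum; bars are group medians and open circles are replicate 5 of day 3 and of day 7. The ratio lies between 1.14 and 1.27 in the 5 day 3 muscles and at 1.2 in day 7 replicate 5, against at most 0.543 in uninjured muscle.

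At day 7 fewer members were called against uninjured muscle. Of the 49 members tested, 30 were called higher than in uninjured muscle, 8 of 19 replication and 22 of 30 mitotic genes, where 15% of tested genes were called. With no filter 19 of 51 were called (5.75% of genes), and without the 2 libraries 23 were called higher (12.4% of genes). All 6 day 7 muscles lay above all uninjured muscles for 3 replication genes (E2f1, E2f8 and Uhrf1) and 16 mitotic genes, 19 of 51, against 7.25% of tested genes. Day 7 replicate 5 held the highest day 7 value for 51 of 51 members, where it held the highest for 26.9% of tested genes, and day 3 replicate 5 held the lowest day 3 value for 44 of 51, against 31.7%.

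Mki67 had a lowest, median and highest day 7 value of 0.247, 1.27 and 5.6 FPKM, all above uninjured muscle (1.06 ± 0.27, adjusted p = 0.00509, and 0.76 ± 0.18 without the 2 libraries). Cdk1 had 0.553, 1.44 and 8.56 FPKM (1.29 ± 0.30, adjusted p = 0.00279) and E2f1 had 0.67, 1.3 and 5.26 FPKM (1.23 ± 0.25, adjusted p = 0.00104). For these genes the lowest day 7 muscle was still above the highest uninjured one. Pcna, by contrast, had 9.95, 12.5 and 34.3 FPKM, overlapped uninjured muscle and was not called (0.40 ± 0.23, adjusted p = 0.191), and Mcm5 at 0.456, 1.02 and 9.49 FPKM fell just short (0.90 ± 0.34, adjusted p = 0.0509). Rrm2, at 0.487, 3.03 and 17.9 FPKM, was called (1.63 ± 0.43, adjusted p = 0.00638) although its lowest muscle lay within the uninjured range.

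In each of the next 10 genes a single day 7 muscle, replicate 5, stood far above the rest. Uhrf1 had a lowest, median and highest value of 0.703, 1.11 and 7.09 FPKM (1.11 ± 0.29, adjusted p = 0.00598) and E2f8 of 0.059, 0.521 and 2.59 FPKM (0.67 ± 0.21, adjusted p = 0.0173), and both stayed above uninjured muscle throughout. For E2f8 the lowest day 7 muscle and the highest uninjured muscle (0.0502 FPKM) had 4 reads each, so that margin came from the library scaling alone. Cdc6 had 0.0997, 0.128 and 1.48 FPKM, and 5 of its 6 muscles lay near the uninjured values (0.18 ± 0.16, adjusted p = 0.42). Ccne1 had 0, 0.657 and 4.13 FPKM and was not called (0.49 ± 0.27, adjusted p = 0.175). Of the mitotic genes, Cdc20 had 0.66, 2 and 16 FPKM (1.52 ± 0.37, adjusted p = 0.00385), Ccnb2 had 0.843, 2.17 and 18.2 FPKM (1.51 ± 0.39, adjusted p = 0.00622) and Top2a had 0.347, 0.924 and 6.09 FPKM (1.02 ± 0.26, adjusted p = 0.00573). These 3 did not overlap uninjured muscle. Birc5 had 0.362, 1.43 and 13.7 FPKM (1.35 ± 0.37, adjusted p = 0.00824), again above all uninjured muscles, whereas Plk1 had 0.438, 1.9 and 12.9 FPKM (1.36 ± 0.37, adjusted p = 0.00808) and was called although its lowest muscle lay within the uninjured range. Ccnb1 had 0.0835, 0.373 and 4.93 FPKM and fell short with all samples (0.73 ± 0.28, adjusted p = 0.0524).

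The fall from day 3 to day 7 turned on those 2 libraries. With all samples 0 of 49 members were called lower at day 7 than at day 3 by limma, where 0.0478% of tested genes were, and 45 of 49 had an unadjusted p under 0.05. Without both libraries 46 were called lower, 18 of 19 replication and 28 of 30 mitotic genes, where 11.9% of tested genes were. Leaving out day 7 replicate 5 alone gave 46 and leaving out day 3 replicate 5 alone gave 36. Cdc20, for example, changed by -1.65 ± 0.37 (adjusted p = 0.0682) with all samples and by -2.25 ± 0.23 (adjusted p = 2.91e-07) without them. Over the members called at day 3, the median share of the day 3 rise that was left at day 7 was 40.9% for replication and 42.3% for mitotic genes, and 12.2% and 16.9% without the 2 libraries.

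At day 14, 4 members were called higher than in uninjured muscle (Rrm2, E2f1, E2f8 and Mki67), where 9.02% of tested genes were called. Rrm2 had a lowest, median and highest value of 2.45, 3.93 and 6.63 FPKM, all above the highest uninjured muscle at 0.492 FPKM (1.82 ± 0.43, adjusted p = 0.00471). E2f1 had 0.491, 0.759 and 2.09 FPKM (0.82 ± 0.25, adjusted p = 0.0219), Mki67 had 0.433, 1.03 and 1.44 FPKM (0.79 ± 0.27, adjusted p = 0.0390) and E2f8 had 0.281, 0.534 and 0.751 FPKM (0.59 ± 0.21, adjusted p = 0.0469). The count depended on libraries of other groups: without the 2 libraries, neither of which is a day 14 muscle, 21 members were called higher, where 11.6% of tested genes were. All 6 day 14 muscles lay above all uninjured muscles for 22 of 51 members, 7 replication and 15 mitotic, against 7.67% of tested genes. Ccnb2, with 0.759, 1.71 and 2.97 FPKM, was one of them (0.98 ± 0.39, adjusted p = 0.0772). Rrm1 was, beside Aurka, the only member with all day 14 muscles below all uninjured muscles, at 1.88, 2.40 and 2.66 FPKM (-0.21 ± 0.13, adjusted p = 0.233).

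At day 21, 0 of 49 members were called higher and 0 lower by limma, where 1.74% and 1.69% of tested genes were, and 2 had an unadjusted p under 0.05, Rrm2 higher and Aurka lower. The count was 0 with limma-voom on the recovered reads as well, 1 with a pseudocount of 0.1 and 4 with only the groups compared. All 5 day 21 muscles lay above all uninjured muscles for 6 of 51 members (Rrm2, E2f1, E2f8, Mki67, Ccna2 and Birc5), against 5.26% of tested genes, and below them for Aurka. Some of these margins were very narrow. For Birc5 the lowest day 21 muscle had 11 reads (0.243 FPKM) and the highest uninjured muscle 10 (0.239 FPKM). For E2f1 these were 7 reads (0.199 FPKM) and 6 (0.162 FPKM), and for Rrm2 17 reads (0.550 FPKM) and 16 (0.492 FPKM). Rrm2 read 2.25, 2.85, 2.39, 1.44 and 0.55 FPKM, 4.69 times the uninjured mean, with a change of 0.98 ± 0.45 that did not pass (adjusted p = 0.221, and 0.0732 without the 2 libraries). Mki67 read 0.277, 0.321, 0.344, 0.232 and 0.552 FPKM (0.28 ± 0.28, adjusted p = 0.618), every value above the uninjured maximum of 0.157 FPKM. Pcna read 9.28, 10.5, 12.4, 9.23 and 6.61 FPKM, around its uninjured level (-0.12 ± 0.24, adjusted p = 0.819). In exact two-sided permutation tests of single genes, whose smallest possible p is 0.00794 with 5 against 5 muscles, Rrm2, E2f1, E2f8, Mki67, Birc5 and Aurka reached that value at day 21, before any adjustment. Groups that do not overlap always give that value, so the test restates the lack of overlap and adds nothing to it. It was run on selected genes only, and Ccna2 was not among them. The median change was 0.11 over the replication genes and 0.13 over the mitotic genes, against 0.014 over all tested genes, and 5.82% and 5.63% of the day 3 rise was left. Between the later times limma called 0 members lower, neither at day 14 against day 7 (0.219% of tested genes, 6 members with an unadjusted p under 0.05) nor at day 21 against day 14 (0% of tested genes, 1 member).

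Lists of other genes of the same machinery were counted beside the members. Of 30 tested partners in replication (36 listed), 17 were called higher at day 3 and 2 lower, with a median change of 0.45, where 23.4% of all tested genes were called higher and 19.8% lower. The largest change was that of Lig1, the ligase that joins Okazaki fragments (2.06 ± 0.31, adjusted p = 1.8e-05), followed by Gins2, a helicase partner (1.22 ± 0.24, adjusted p = 0.000233). Those called lower were Rpa1, which coats single-stranded DNA (-0.46 ± 0.15, adjusted p = 0.0154), and Orc3, an origin recognition subunit (-0.38 ± 0.10, adjusted p = 0.0048). Scaling every sample to a common sum moved the median change of all genes at day 3 to 0.51, so falls of this size can depend on the scaling. Rfc4, a subunit of the clamp loader, was among the lowest changes but was not called (-0.44 ± 0.25, adjusted p = 0.17). Of 29 tested partners in mitosis (38 listed), 27 were called higher and 1 lower, with a median change of 1.23. The small Cdk1 subunit Cks2 went from 0.397 ± 0.399 FPKM (SD, n = 5) to 19.5 ± 5.31 FPKM (3.88 ± 0.43, adjusted p = 4.31e-07), and the mitotic kinase Pbk from 0.116 ± 0.137 FPKM to 4.46 ± 1.65 FPKM (2.25 ± 0.32, adjusted p = 6.94e-06). The exception was securin, Pttg1, which holds separase back until anaphase. It had 54.6 ± 8.51 FPKM in uninjured muscle, above every one of the 51 members, and 21.8 ± 7.28 FPKM at day 3, and it was called lower (-1.33 ± 0.26, adjusted p = 0.000224). Bub3, a spindle checkpoint protein, was not called (0.08 ± 0.11, adjusted p = 0.598). At day 7 the partners called higher and lower were 3 and 2 for replication and 19 and 1 for mitosis, against shares of 15% and 14.4% of all tested genes. By day 21 limma called none in either list.

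Upstream of S phase, 10 of 21 tested G1 genes (22 listed) were called higher at day 3 and 3 lower, with a median change of 0.48, beside the same 23.4% and 19.8% of tested genes. The largest changes were those of Myc, a transcription factor that drives growth, from 0.807 ± 0.226 FPKM to 4.22 ± 1.23 FPKM (1.51 ± 0.28, adjusted p = 0.000129), and of E2f2, an activator like E2f1, from 0.777 ± 0.109 FPKM to 4.25 ± 1.74 FPKM (1.5 ± 0.28, adjusted p = 0.000145). E2f6, a repressor of the E2F family, went the other way, from 29.3 ± 4.53 FPKM to 10.8 ± 2.53 FPKM (-1.38 ± 0.24, adjusted p = 7.74e-05), and was still lower at day 21 (-1.01 ± 0.24, adjusted p = 0.0195). Rbl2, which encodes the pocket protein p130 of resting cells, was called lower at day 3 as well (-0.58 ± 0.20, adjusted p = 0.0208). A fall of this size can also depend on the scaling, since a common sum moved the median of all genes to 0.51. The retinoblastoma gene Rb1 was the one G1 gene called higher at day 21, when 1.74% of tested genes were, at 5.49 ± 1.44 FPKM against 2.6 ± 0.383 FPKM (0.83 ± 0.20, adjusted p = 0.0217).

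Cell type markers moved beside these genes, and their part in the results was not tested. For all the marker counts below, 23.4% of all tested genes were called higher and 19.8% lower at day 3. At day 7, 15% were called higher. Macrophage and monocyte markers were called higher at day 3 for 10 of 10 genes. Their summed level lay between 23.8 and 36.6 FPKM in uninjured muscle, between 463 and 2550 on day 3, between 65.8 and 2470 on day 7, between 61 and 143.7 on day 14 and between 48.5 and 81.8 on day 21, and none of them was at 0. Day 3 replicate 5 had the lowest sum of its group (463) and day 7 replicate 5 the highest (2470), as for the cell cycle genes. Neutrophil markers were called for 3 of 3 tested genes (5 listed), with sums between 0.456 and 3.93 FPKM without injury and between 19.2 and 37.6 on day 3, and Ly6g was at 0 in every group but day 3. On day 7 the neutrophil sums lay between 1.61 and 97.8 FPKM, with the highest in replicate 5. Satellite cell and myoblast markers (Pax7, Myf5, Myod1, Myog, Cdh15, Mymk and Des) were called higher for 5 of 7 at day 3. Their sums lay between 853 and 1282 FPKM without injury and between 1326 and 1833 on day 3. Des (desmin) is also a gene of mature myofibres, so these sums are not those of satellite cells and myoblasts alone. Fibro-adipogenic and fibroblast markers were called for 5 of 8 at day 3 and 6 of 8 at day 7, with sums between 59 and 132.6 FPKM without injury and between 420.3 and 846 on day 3.

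Myofibre markers were called lower for 6 of 8 at day 3, with sums between 64645 and 77825 FPKM without injury and between 18801 and 46136 on day 3. Endothelial markers were called lower for 3 of 6, with sums between 85.6 and 114 FPKM and then between 53 and 132.6. Lymphocyte markers were called higher for 1 of 3 tested genes (7 listed), with sums between 1.16 and 2.18 FPKM and then between 2.42 and 9.76, and Cd3d was at 0 in uninjured muscle. Erythroid markers were called for 0 of 3 tested genes (4 listed) by limma, with sums between 257 and 386 FPKM and then between 161 and 321.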

How the data were processed

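Messenger RNA of tibialis anterior muscle was captured on poly-T beads and sequenced from non-directional libraries on an Illumina instrument. The submitters' processing notes name HISAT2 2.0.5 and featureCounts 1.5.0-p3. The genome build is not given in the sources used here, and 98.3% of the genes found in GENCODE M21 (GRCm38) had the same start and end. The authors deposited FPKM per gene and sample. FPKM times gene length gave whole reads for 100% of values (tolerance 0.02). The deposited scaling divided by 0.747 to 1.48 times a sample's own reads, so samples had been rescaled against each other. This factor followed the group: 0.747 to 0.819 (mean 0.782) for uninjured muscle and 1.14 to 1.48 (mean 1.25) for day 3 muscle. The later groups, in order of time, had means of 1.18, 1.04 and 0.897. Compared with scaling by own reads, it lowers day 3 levels relative to uninjured ones. Calls of higher and lower against uninjured muscle therefore depend on it. Groups came from the sample titles.

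Genes at or above 0.5 FPKM in 5 or more samples (14630) entered the tests on log2(FPKM + 1) with limma 3.58.1 (trend, R 4.3.3) in one fit of all 27 samples, with 7 comparisons and Benjamini-Hochberg adjustment within each. FPKM is not a count, so no count model was the main test. The fit was tested on simulated data. Alternatives were limma-voom on the recovered reads, pseudocounts of 0.1 and 0.5, no filter, FPKM of at least 1, other scalings, only the groups compared, replicate blocks and leaving out each sample, with a ratio of means and a fit with no filter and without 2 libraries added after the data were seen. Members, lists and the fit without day 3 replicate 5 and day 7 replicate 5 were chosen with earlier results of these data known. Full values are given for Mcm5, Pcna, Rrm2, Cdc6, Ccne1, Mki67, Top2a, Cdk1, Ccnb1, Plk1, Birc5 and the extremes of each class, by rule, and E2f1, E2f8, Orc3, Tpx2 and Rb1 were added after their values were seen. Promoter sequences are from RefSeq (GRCm38.p6).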

Additional observations from a re-analysis of the deposited data

Results flagged for a closer look

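Of 110 sets of values of one gene or class sum in one group, 22 had a lowest or highest muscle that stood apart from the rest by Dixon's test. Chance gives about 1 in 20 for a single set. The sets share the same muscles and the sums hold the same genes, so they are not independent. Of the 22, 19 were day 7 replicate 5. In that muscle the replication genes summed to 152.9 FPKM, against 27.9 to 42.2 in the other 5 day 7 muscles, and the mitotic genes to 183.3 FPKM, against 15.9 to 35.7. Its replication values were 9.49 FPKM for Mcm5, 34.3 for Pcna, 17.9 for Rrm2, 1.48 for Cdc6, 4.13 for Ccne1, 7.09 for Uhrf1, 5.26 for E2f1 and 2.59 for E2f8. Its mitotic values were 5.6 FPKM for Mki67, 6.09 for Top2a, 8.56 for Cdk1, 4.93 for Ccnb1, 12.9 for Plk1, 13.7 for Birc5, 16 for Cdc20, 18.2 for Ccnb2 and 7.61 for Aurka. Macrophage and monocyte markers summed to 2470 FPKM there, inside the day 3 range of 463 to 2550, and its myofibre markers to 22885 FPKM, the lowest of day 7. Its neutrophil markers summed to 97.8 FPKM, above the day 3 range of 19.2 to 37.6.

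The other 3 were single genes: Cdc6 at 0.394 FPKM and Ccnb1 at 0.297 FPKM in day 21 replicate 5, and Uhrf1 at 1.27 FPKM in day 14 replicate 4, each the highest of its group.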

How the results depend on the processing

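The count of members called higher at day 3 stayed between 45 and 46 when single muscles were left out. At day 7 the count of 30 became 19 with no filter, 16 with quantile normalization, 9 with only the groups compared and 18 with no filter and without the 2 libraries, and ranged from 18 (without day 7 replicate 5) to 36 when single muscles were left out. At day 14 the count of 4 became 22 and 12 with pseudocounts of 0.1 and 0.5, 1 with no filter, 2 with quantile normalization, 1 with a common sum, 25 with only the groups compared, and without the 2 libraries 21, or 18 with no filter. Leaving out single muscles gave 1 (without day 14 replicate 5) to 17 (without day 7 replicate 5), with 2 without any one uninjured muscle or without day 14 replicate 1 or 4. At day 21 the count of 0 became 1 with a pseudocount of 0.1 and 4 with only the groups compared, and stayed 0 when single muscles were left out. From day 3 to day 7 the count called lower was 1 with quantile normalization, 46 without the 2 libraries, 48 without them and with no filter, and 0 to 46 when single muscles were left out. It stayed 0 for the later steps. Leaving out the 2 libraries did not alter the changes at days 14 and 21 against uninjured muscle, only their SE, because one fit shares the spread of all groups. For Mki67 at day 14 the change was 0.79 both times and the SE went from 0.27 to 0.17. For Aurka at day 21 it was -0.94 both times and the SE went from 0.30 to 0.19. The cause of the other shifts was not tested, except that fewer samples or genes enter some of the fits.

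The replication minus mitotic difference depended on the scale. With pseudocounts of 0.1 and 0.5 it was -1.12 and -0.43 at day 3, -0.88 and -0.28 at day 7, and -0.36 and -0.090 at day 21, and it was -0.35 with 0.1 at day 14. With limma-voom it was -2.43, -2.19, -1.32 and -0.74, and as a ratio of means -2.0, -1.93, -1.13 and -0.92 at days 3, 7, 14 and 21. At day 3 it was -0.59 with FPKM of at least 1 and -0.14 over the 42 members whose class is least open to question. At day 7 it was -0.027 with quantile normalization and -0.013 with a common sum, with which it was 0.052 at day 14. With single muscles left out it lay between -0.33 and -0.25 on day 3, between -0.19 and -0.11 on day 7, between -0.060 and 0.030 on day 14 and between -0.068 and -0.021 on day 21.

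Ccne2 at day 3 turned to -0.13 with quantile normalization and to -0.014 without uninjured replicate 5, and reached 0.15 without uninjured replicate 2. Of the other single-gene values, 1457 kept their direction and call, 53 lost the call and 1 gained it. Same-numbered muscles did not deviate together in every pair (correlations of -0.17 to 0.055 at day 3 against uninjured, and 0.092 to 0.57 at day 14 against day 7), so the numbers were not taken to pair the samples. A replicate block gave 46, 30, 4 and 0 members called at the 4 times by number and 46, 29, 4 and 0 by letter. Low uninjured counts, such as 2 reads of Bub1 over 5 muscles, limit the ratios to the uninjured level.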

Other observations

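The table lists Tnnc2, the fast-fibre troponin C, at 0.0854 to 0.944 FPKM in uninjured muscle (1 to 13 reads) and at a median of 0.194 to 0.671 FPKM in the injured groups. Of its 800 exon bases, 592 (74%) lie inside exons of Ube2c on the other strand, and the libraries do not keep strand. Whether the counting step left out reads that fall on both genes was not tested. Ube2c itself read 1.36 to 2.16 FPKM in uninjured muscle (47 to 92 reads) and 9.44 to 17.2 FPKM at day 3.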
